A study of Mus musculus with 6 samples.

Results

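Chromatin accessibility was described at 10 genes of the AP-1 and immediate early response in mouse nephron progenitor cells: Fos, Fosb, Fosl1, Fosl2, Jun, Junb, Jund, Atf3, Egr1 and Ier2. Their regions were the accessible regions whose midpoint lay inside 1 of these genes or within 50 kb of it in mm10. This rule took 42 of the 43523 distinct regions. Nephron progenitors are the mesenchymal cells of the outer kidney from which the nephron epithelium forms. Both groups came from CD1 mice, as intact litters with no genetic change or drug named in the labels, and were studied by ATAC-seq, in which the transposase Tn5 cuts and tags open chromatin. At the embryonic stage E14.5 and on the day of birth (P0) there were 3 libraries each, biological replicates that each pooled up to 24 kidneys of 1 litter. The kidneys were digested with collagenase A and pancreatin for 15 min at 37 °C, the progenitors were pulled out with beads carrying antibodies to the integrin Itga8, and 50000 cells were used per library. All 6 libraries passed through this digestion, and no undigested library was analysed here, so its part in any level given here was not tested.

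AP-1 is a family of paired transcription factors. A Fos protein joins a Jun protein through a leucine zipper, the pair binds a short palindromic DNA element, and Jun proteins can also pair with each other or with Atf proteins. Fos, Jun, Egr1 and several relatives are immediate early genes, which are transcribed within minutes of growth factor, stress or calcium signals without new protein synthesis. In many tissues enzymatic dissociation is known to switch these genes on, and in the developing kidney the same pathway lies downstream of growth factor signalling through the MAP kinases.

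The stages were compared by region with edgeR's quasi-likelihood test on the counts, with Benjamini-Hochberg adjustment over all 43523 regions. Values per library are CPM, the counts scaled by edgeR to a common library size (TMM). Fold changes are log2 values of P0 relative to E14.5, with their standard error (SE). The libraries held 6492996 to 12292629 counts in regions, and the lowest count of any of the 42 regions in a library was 39. As a check of the cell type, a promoter region was present for 8 of 9 nephron progenitor markers (all but Pax2), 4 of 5 ureteric, 2 of 5 stromal, 1 of 5 endothelial and 0 of 5 immune markers. Summed over its promoter regions, the progenitor list stood at 232 to 238 CPM at E14.5 and 200.4 to 260.1 CPM at P0. The ureteric list stood at 129 to 151 CPM at E14.5 and 111 to 139 CPM at P0, with Ret and Wnt11 among its 4 promoters. The stromal list stood at 58.2 to 69.6 CPM and then 46.3 to 60.5 CPM, and the endothelial list, which was Kdr alone, at 19.8 to 29.6 CPM and then 22.7 to 31.2 CPM. Sums depend on how many promoters a list has, and the median promoter stood at 26.4 CPM in the progenitor, 32.9 in the ureteric, 29.4 in the stromal and 25.9 in the endothelial list, so the level per promoter did not set the progenitor list apart. The part of such cells in the results at the 10 genes was not tested.

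The 42 regions were spread unevenly over the genes. Junb had 7, Fos and Fosb 6 each, Ier2 5, Fosl1, Jund and Atf3 4 each, Egr1 3, Jun 2 and Fosl2 1. Of the 6 regions of Fos, 4 were overlapping versions of 1 promoter peak, so that the 42 regions marked 39 separate places. A region covered the promoter of 7 genes. No region spanned the RefSeq start of Jund. For Fosl1 and Ier2 the start was not located here, and no region was listed as their promoter. Jund and Ier2 each had a region over the gene itself, which at Ier2 ran past the gene's upper end. The map of the loci shows these positions.

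**Figure D1:**
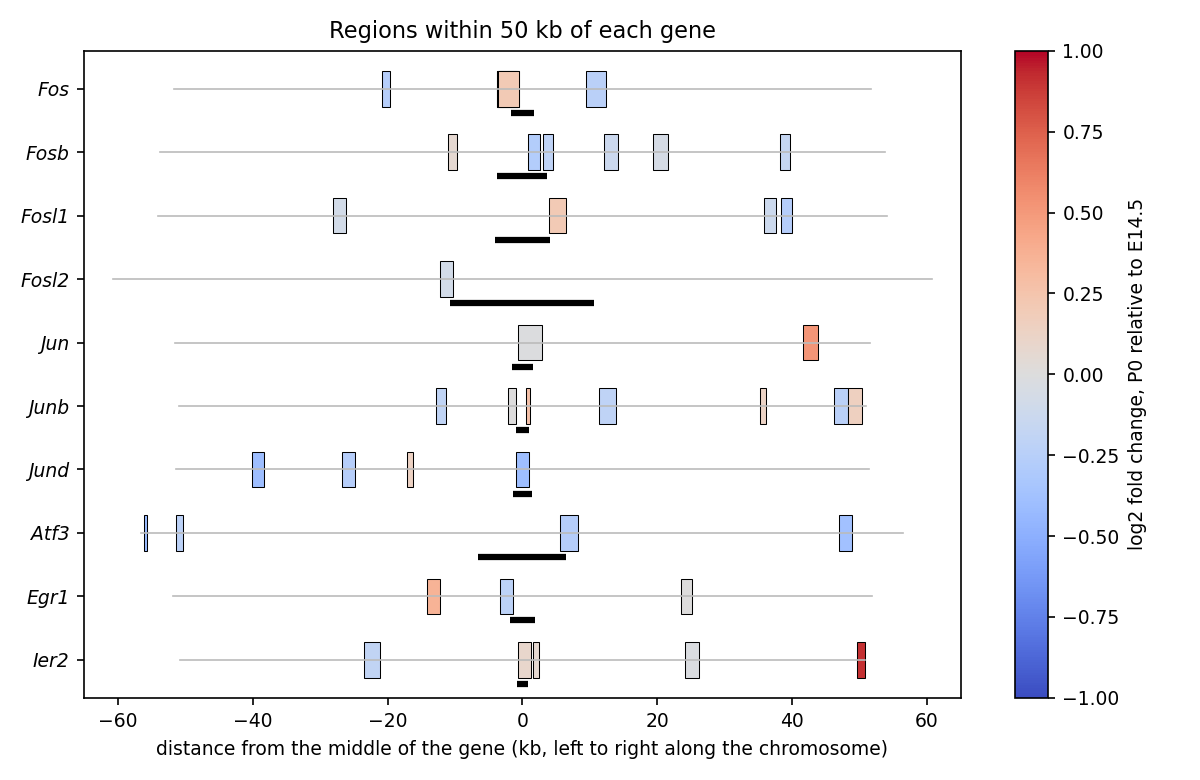
Positions of the 42 regions (boxes) along each locus, in kb from the middle of the gene, with the gene as a black bar and the searched window as a grey line; colour gives the log2 fold change of P0 relative to E14.5. Most boxes are pale, between -0.42 and 0.52, and the 1 dark red box at the right end of the Ier2 locus is a region inside Nfix, at 0.91.

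The sequences just before the start site are shown because each of them lay wholly inside an accessible region, and because AP-1 and Atf/Creb factors are known to act on promoters of their own family. RefSeq promoter sequences (assembly GRCm38.p6) were matched for 7 of the 10 genes, and 6 of these lay in a region. The 150 bases before the start are given 5′ to 3′ on the gene's strand. They lie at chr12:85473740-85473889 (Fos, plus strand), chr7:19310046-19310195 (Fosb, minus strand), chr5:32136322-32136471 (Fosl2, plus strand), chr4:95052223-95052372 (Jun, minus strand), chr8:84978749-84978898 (Junb, minus strand) and chr1:191183334-191183483 (Atf3, minus strand). Capitals mark TGACG, the core of the cyclic AMP response element (CRE), or its reverse complement CGTCA, and in Jun the related element TGACATCA.
Fos: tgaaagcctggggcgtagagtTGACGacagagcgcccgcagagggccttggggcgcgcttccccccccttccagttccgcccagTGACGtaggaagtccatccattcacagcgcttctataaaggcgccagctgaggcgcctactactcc
Fosb: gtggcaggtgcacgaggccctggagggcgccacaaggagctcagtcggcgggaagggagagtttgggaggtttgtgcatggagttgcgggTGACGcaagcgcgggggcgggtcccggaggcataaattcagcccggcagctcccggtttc
Fosl2: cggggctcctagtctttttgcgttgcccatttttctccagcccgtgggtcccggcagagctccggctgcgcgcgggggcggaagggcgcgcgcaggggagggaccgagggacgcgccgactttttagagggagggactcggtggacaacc
Jun: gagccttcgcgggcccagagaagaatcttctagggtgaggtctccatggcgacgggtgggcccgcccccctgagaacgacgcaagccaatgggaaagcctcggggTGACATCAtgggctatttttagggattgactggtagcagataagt
Junb: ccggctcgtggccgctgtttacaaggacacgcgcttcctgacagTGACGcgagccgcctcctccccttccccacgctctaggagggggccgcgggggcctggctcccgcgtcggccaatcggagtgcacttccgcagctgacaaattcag
Atf3: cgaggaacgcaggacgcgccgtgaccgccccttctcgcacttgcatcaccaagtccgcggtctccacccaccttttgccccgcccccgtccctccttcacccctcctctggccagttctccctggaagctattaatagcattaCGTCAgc

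In the 250 bases before the start, TGACG was found on either strand in 4 of these 6 genes. It was not found in Jund, which makes 4 of the 7 matched genes. Of all 32851 promoter windows of the same length, in accessible regions or not, 17.8% held it. Fos held it at bases -129 to -125 and again at -66 to -62, Fosb at -60 to -56, Junb at -106 to -102 and Atf3, on the other strand, at -7 to -3, counted from the start site. Jun held TGACATCA at -45 to -38, an element that 2.93% of all windows held. It was searched for as the AP-1-like element of Jun, so finding it in Jun was not a test. The full CRE TGACGTCA (1.55% of all windows), the AP-1 element TGANTCA (6.75%) and the CArG box of serum response factor (1.47%) were not found in these 250 bases of any of the matched genes, on either strand. TGACG is part of the full CRE, and it was added to the search after the sequences had been seen. A GC box (GGGCGG, 32.7% of all windows) was present in Fos, Fosb, Fosl2, Jun and Atf3, a CCAAT box (33.9%) in Jun and Junb, and the TATA letters TATAAA (12.4%) in Fos, at -33 to -28. These are matches of letters only.

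None of the 42 regions passed an adjusted p of 0.05 (edgeR), where 4.73% of all regions did, 1.79% higher and 2.94% lower at P0. That share moved with single libraries. The 2059 calls over all regions became 339 without E14.5 replicate 3, 474 without P0 replicate 1 and 1099 without E14.5 replicate 1. There were 1653 without P0 replicate 2, 2245 without P0 replicate 3 and 2987 without E14.5 replicate 2. Leaving out a library also lowers the power of the test. At an unadjusted p under 0.05, 2 of the 42 regions were found, or 4.76%, beside 18.7% of all regions. Both were higher at P0, as were 9.85% of all regions at that p. DESeq2 and limma-voom also called none of them. Promoter regions as a class were called less often than the rest of the table: 0.851% of the 14097 regions classed as promoters of any gene passed, and 28 of the 42 regions had that class. The median log2 fold change of the 42 regions was -0.08, with a range of -0.42 to 0.91. It was 0.01 over all regions and -0.10 over all promoter regions. The groups did not overlap in 6 of the 42 regions, or 14.3%, of which 4 were higher at P0 and 2 lower. Over all regions the groups did not overlap in 24.2%, higher in 11.8% and lower in 12.4%, and over all promoter regions in 16.8%.

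The estimates were narrow at most of these places. In 40 of the 42 regions the 95% interval of the fold change lay inside a 2-fold change either way, a share of 95.2%, beside 72.1% of all regions and 91.8% of all promoter regions. All 7 promoters were among the 40. The exceptions were a distal region of the Atf3 locus, with an interval of -1.22 to 0.37, and the region inside Nfix, with 0.19 to 1.62. A p above the threshold does not show that the stages were equal, and the intervals give the sizes of difference that remain possible.

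**Figure D2:**
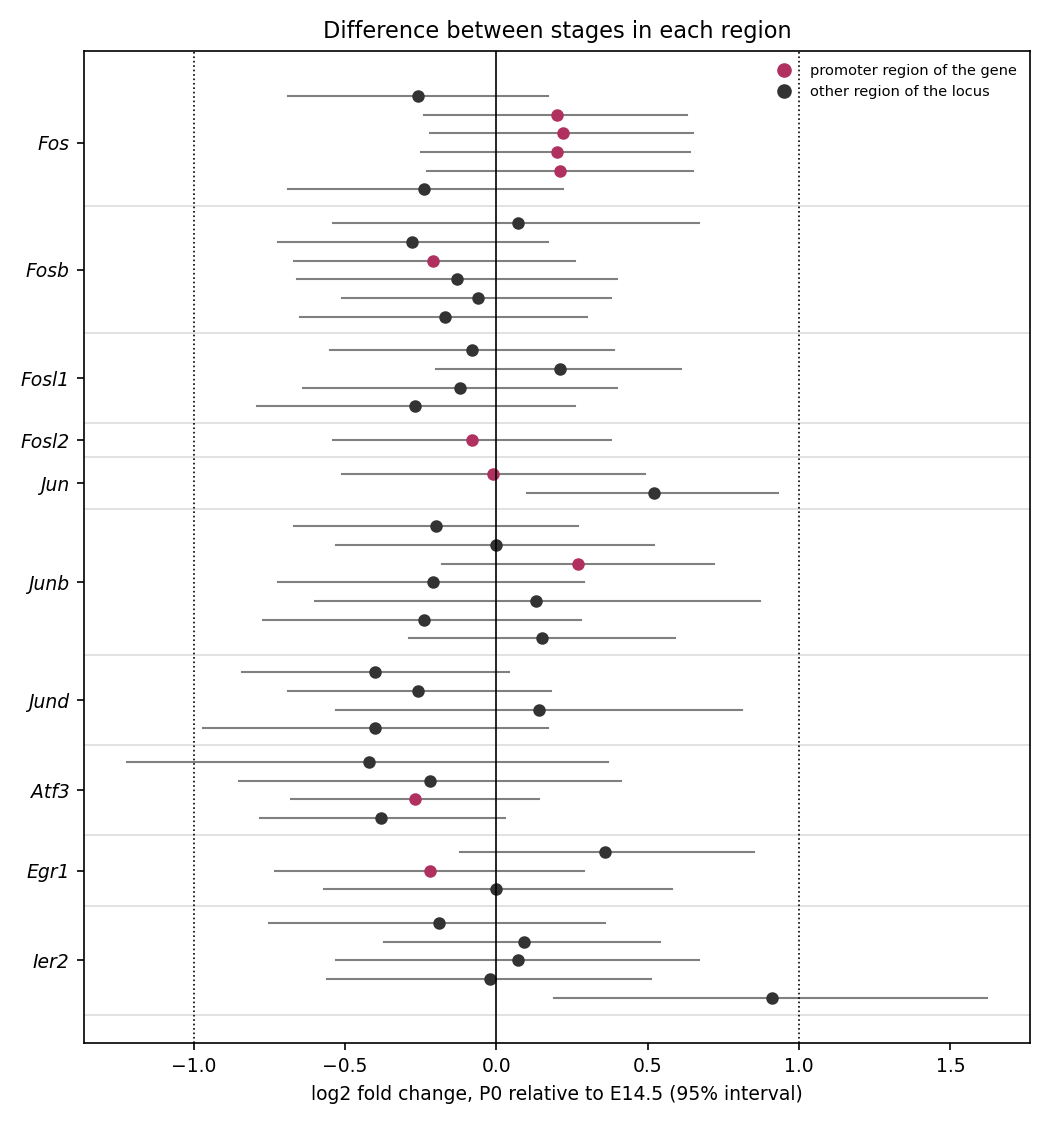
Log2 fold change of P0 relative to E14.5 with its 95% interval for each of the 42 regions, ordered along the chromosome within each gene; promoter regions of the gene are in red, other regions in black, and dotted lines mark a 2-fold change. All intervals but those of 2 regions stay inside the dotted lines, and the 2 intervals that leave out 0 belong to the distal Jun region (0.52) and the region inside Nfix (0.91).

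The Fos family comes first. Fos, the archetypal immediate early gene and a partner of Jun proteins, had its widest promoter region at chr12:85471818-85475097. Its CPM were 40.5, 38.97 and 44.5 in E14.5 replicates 1 to 3 and 44.3, 39.5 and 59.8 in P0 replicates 1 to 3. P0 replicate 3 stood above the other 5 libraries, which lay close together, and the groups overlapped. The means were 41.3 ± 2.86 (SD, n = 3) and 47.9 ± 10.6 (SD, n = 3), with a log2 fold change of 0.22 (SE 0.20, interval -0.22 to 0.65, edgeR adjusted p = 0.628). The other 3 versions of this peak gave 0.20 to 0.21. Without P0 replicate 3 the log2 fold change of the widest version was 0.01.

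Outside its promoter the Fos locus had an accessible region on each side. The upstream one, chr12:85454812-85455982, lies 18.5 kb before Fos and overlaps an element that the deposited table lists from the VISTA enhancer collection. It had 53.97, 41.5 and 41.8 CPM at E14.5 and 41.3, 31.5 and 41.7 CPM at P0. E14.5 replicate 1 was the highest and P0 replicate 2 the lowest of the 6, the groups overlapped, and the log2 fold change was -0.26 (SE 0.20, edgeR adjusted p = 0.545). The mean CPM over all libraries was 41.96 here and 44.58 at the widest Fos promoter region. Per kb of length the values were 35.8 and 13.6 CPM per kb, in this order in each of the 6 libraries. That difference goes with the width of the regions, 1171 bases here and 3280 at the promoter. The downstream region, 9.2 kb past the gene and listed as a FANTOM enhancer, had a log2 fold change of -0.24 (SE 0.21, edgeR adjusted p = 0.613).

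Fosb encodes a close relative of Fos that is also induced early. Its promoter region at chr7:19309429-19310974 had 25.2, 16.1 and 18.1 CPM at E14.5 and 17.7, 14.8 and 18.6 CPM at P0. E14.5 replicate 1 stood alone above the other libraries, and the groups overlapped. The log2 fold change was -0.21 (SE 0.22, edgeR adjusted p = 0.676), and it was 0.00 without E14.5 replicate 1 and -0.35 without E14.5 replicate 2. Within the gene, chr7:19307170-19309076 had the lowest fold change of the locus, -0.28 (SE 0.21, edgeR adjusted p = 0.530), and the highest, 0.07, was that of an exonic region of the neighbour Rtn2. A region 16.8 kb from Fosb, chr7:19325752-19328041, carried listed Jun, Junb and Jund motif matches. It had 22.7, 18.7 and 29.1 CPM at E14.5 and 20.5, 20.9 and 25.7 CPM at P0, fully overlapping, with a log2 fold change of -0.06 (SE 0.21, edgeR adjusted p = 0.915).

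Fosl1 and Fosl2 encode the Fos-related antigens Fra-1 and Fra-2, which lack the strong activating domain of Fos and are induced later. The Fosl2 promoter region, chr5:32135007-32136865, was the only region of its locus and held listed matches for Jun, Junb, Jund and Bach2. Its CPM were 41.4, 35.1 and 37.95 at E14.5 and 37.9, 25.3 and 44.5 at P0. The lowest and the highest library of the 6 were both P0 libraries, and the log2 fold change was -0.08 (SE 0.22, interval -0.54 to 0.38, edgeR adjusted p = 0.891). It was 0.11 without P0 replicate 2 and -0.28 without P0 replicate 3. No promoter region was listed for Fosl1. The region nearest to it, chr19:5455731-5458356, overlaps the end of Fosl1 and the neighbouring Ccdc85b, so its signal cannot be assigned to Fosl1 alone. Its CPM were 17.1, 17.4 and 17.1 at E14.5 and 21.7, 19.98 and 17.9 at P0. Each P0 library lay above each E14.5 library, by little in the case of P0 replicate 3, and the log2 fold change of 0.21 did not pass the test (SE 0.19, edgeR adjusted p = 0.621). The lowest value at this locus was -0.27, at a region by Cfl1 (SE 0.25, edgeR adjusted p = 0.625).

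Among the Jun genes, Jun itself, which encodes the main activating Jun protein, had by far the most counts. Its promoter region, chr4:95050005-95053502, ranked at the 99.8th percentile of mean CPM among all regions and also covers the start of Junos, a noncoding neighbour on the other strand, and the table names it after BC042782. The CPM were 151, 144 and 171 at E14.5 and 162, 109 and 191 at P0. P0 replicate 2 was the lowest and P0 replicate 3 the highest of the 6 libraries, and the E14.5 values lay between them. The means were 155 ± 14.1 (SD, n = 3) and 154 ± 41.9 (SD, n = 3), and the log2 fold change was -0.01 (SE 0.23, interval -0.51 to 0.49, edgeR adjusted p = 0.990). It was 0.19 without P0 replicate 2 and -0.21 without P0 replicate 3.

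The second region of the Jun locus gave one of the 2 unadjusted p-values under 0.05. It lies at chr4:95092314-95094455, 41.2 kb from Jun, within Junos, and its listed motif is that of Smad2. It had 14.0, 12.96 and 15.7 CPM at E14.5 and 21.7, 19.5 and 19.7 CPM at P0. The libraries of each stage lay close together and the groups did not overlap. The log2 fold change was 0.52 (SE 0.20, interval 0.10 to 0.93), with an edgeR adjusted p of 0.161. In the authors' deposited table the log2 fold change was 0.54, with an adjusted p of 0.171.

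Junb, whose product pairs with Fos and can restrain Jun, had a small promoter region at chr8:84978324-84979014. It had 11.4, 12.3 and 10.98 CPM at E14.5 and 14.7, 12.7 and 14.3 CPM at P0. All P0 libraries lay above all E14.5 libraries, P0 replicate 2 by the least, and it was the only promoter of the 7 in which the groups did not overlap. The means of 11.5 ± 0.656 and 13.9 ± 1.04 (SD, n = 3 each) gave a log2 fold change of 0.27 that did not pass the test (SE 0.21, interval -0.18 to 0.72, edgeR adjusted p = 0.548). Just past the other end of Junb, chr8:84975656-84976885 had a log2 fold change of -0.00 (SE 0.24). The lowest value at the locus was -0.24, 46.4 kb away.

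Jund encodes the most steadily expressed Jun protein. No region spanned its RefSeq start, and a region beginning 518 bases after it, chr8:70698257-70700168, covered much of the gene. The deposited table lists that region as a promoter of Gm11175. The CPM were 77.7, 44.7 and 57.6 at E14.5 and 41.3, 30.7 and 63.2 at P0. Values differed more between replicates than between stages, with E14.5 replicate 1 the highest and P0 replicate 2 the lowest. The means were 60.0 ± 16.6 and 45.1 ± 16.6 (SD, n = 3 each) and the log2 fold change was -0.40 (SE 0.27, interval -0.97 to 0.17, edgeR adjusted p = 0.462). It ranged from -0.74 without P0 replicate 3 to -0.17 without E14.5 replicate 1. A region of the neighbour Pgpep1, 37.8 kb away, also had -0.40 (SE 0.20, edgeR adjusted p = 0.318), and there the groups did not overlap. The highest value at the locus was 0.14, at chr8:70681996-70682958, which carried listed Jun, Junb and Jund matches and had 6.52, 5.87 and 12.1 CPM at E14.5 and 8.85, 6.96 and 10.9 CPM at P0. Its groups overlapped (edgeR adjusted p = 0.862).

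Atf3 encodes a stress-induced factor that pairs with Jun proteins and often represses. Its promoter region, chr1:191182377-191185022, is listed as a FANTOM enhancer and had 42.8, 42.1 and 44.6 CPM at E14.5 and 33.2, 31.6 and 42.6 CPM at P0. At P0, replicates 1 and 2 lay below all E14.5 libraries and replicate 3 reached into their range. The means were 43.2 ± 1.28 and 35.8 ± 5.90 (SD, n = 3 each), and the log2 fold change was -0.27 (SE 0.19, interval -0.68 to 0.14, edgeR adjusted p = 0.501). It was -0.43 without P0 replicate 3. All 4 regions of this locus had values below 0, from -0.42 to -0.22, and none passed the test. At the promoter of D730003I15Rik, 41.4 kb away, the groups did not overlap (log2 fold change -0.38, SE 0.19, edgeR adjusted p = 0.316). The value of -0.42 (SE 0.37, edgeR adjusted p = 0.599) came from chr1:191120656-191121164, with 15.2, 4.91 and 10.9 CPM at E14.5 and 6.35, 11.1 and 5.84 CPM at P0. In this region the order of the libraries bore no relation to stage.

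Egr1 encodes a zinc finger factor induced together with Fos, through serum response factor. Its promoter region, chr18:34859785-34861627, had 56.1, 43.8 and 50.8 CPM at E14.5 and 42.8, 28.2 and 57.6 CPM at P0. As at Jun, the lowest and the highest library were P0 replicates 2 and 3. The log2 fold change was -0.22 (SE 0.24, interval -0.73 to 0.29, edgeR adjusted p = 0.687), and it was 0.00 without P0 replicate 2 and -0.51 without P0 replicate 3. A region 11.3 kb from Egr1, chr18:34848977-34850809, held 10.4, 8.32 and 10.5 CPM at E14.5 and 13.1, 11.8 and 12.6 CPM at P0. Its groups did not overlap, and its log2 fold change of 0.36 did not pass the test (SE 0.23, edgeR adjusted p = 0.424). On the other side, 22.5 kb away, the value was 0.00 (SE 0.27).

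Ier2, an early-response gene whose product acts in the nucleus, had a region over the gene at chr8:84661507-84663304. The CPM were 21.2, 19.97 and 21.8 at E14.5 and 20.8, 16.8 and 28.7 at P0. The E14.5 libraries were nearly equal and the P0 libraries spread to both sides of them, with a log2 fold change of 0.09 (SE 0.22, edgeR adjusted p = 0.881). Next to it, chr8:84663602-84664483 had 21.8, 11.2 and 13.2 CPM at E14.5 and 21.1, 11.1 and 15.8 CPM at P0. Replicate 1 was the highest library of each stage there, and the log2 fold change was 0.07. The lowest value at this locus was -0.19, at Cacna1a.

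The largest difference at any of the 10 loci belonged to a region at the edge of the Ier2 window. It lies at chr8:84711716-84712940, 49.5 kb from Ier2, inside Nfix and outside its exons, and it was the region just inside the 50 kb limit. Nfix encodes a nuclear factor I protein. The CPM were 6.88, 4.03 and 6.77 at E14.5 and 14.4, 6.05 and 12.2 at P0. P0 replicates 1 and 3 lay above all E14.5 libraries, while P0 replicate 2 lay among them. The log2 fold change was 0.91 (SE 0.33), with an edgeR adjusted p of 0.148, the other of the 2 regions with an unadjusted p under 0.05. Without P0 replicate 2 it was 1.18 with an edgeR adjusted p of 0.0414, the only call at these loci under any setting tried (3.8% of all regions were called without that library), and its adjusted p ran from 0.0414 to 0.549 over the settings. In the authors' deposited table this was the 1 region of the 42 that was classed as opening, with a log2 fold change of 1.09 and an adjusted p of 0.0585, and the other 41 were classed as stable. Over all regions, 5.34% had an adjusted p under 0.1 in the authors' deposited table. The region just outside the limit, the promoter of Ppp1r13l 51.1 kb from Fosb, had a log2 fold change of -0.06 (SE 0.31).

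**Figure D3:**
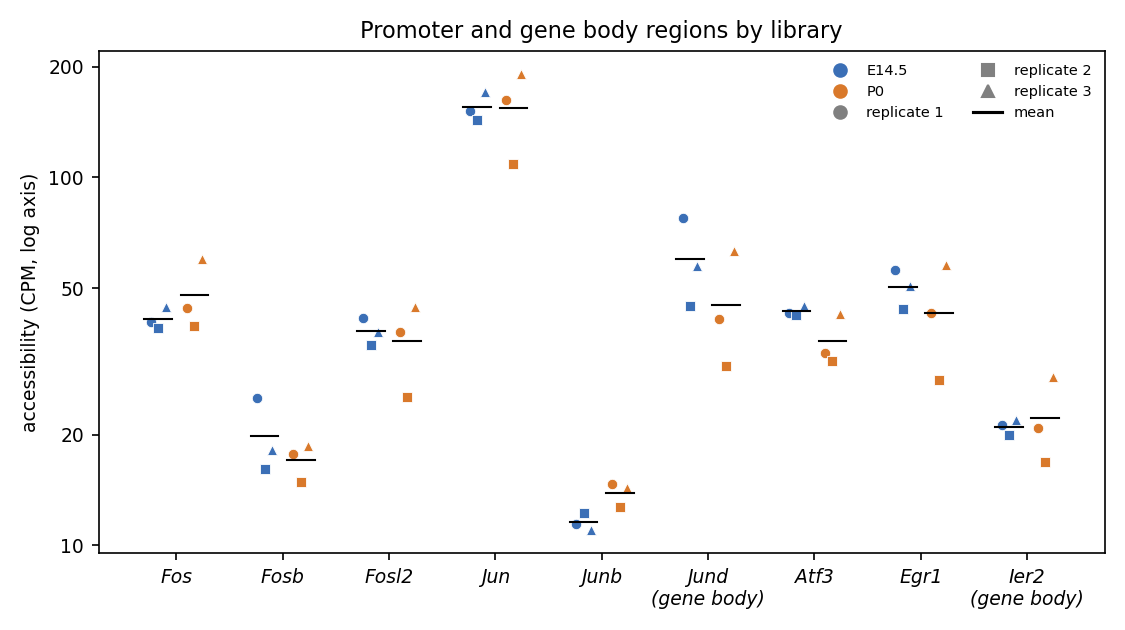
CPM of each library, on a log axis, at the 7 promoter regions and at the regions over Jund and Ier2, with E14.5 in blue, P0 in orange, a symbol for each replicate and a bar at the mean. The groups overlap at each gene but Junb, P0 replicate 2 is the lowest P0 library at each gene shown and P0 replicate 3 is the highest at each but Junb.

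Levels were compared between genes per kb of region, over all 6 libraries, so they depend on the width of each region as well as on its counts. The Jun promoter stood highest at 44.2 ± 8.0 CPM per kb (SD, n = 6). The region over Jund followed at 27.5 ± 8.86, then the promoters of Egr1 at 25.3 ± 5.91, Fosl2 at 19.9 ± 3.56, Junb at 18.4 ± 2.18 and Atf3 at 14.9 ± 2.10. The Fos promoter stood at 13.6 ± 2.39, the region over Ier2 at 12.0 ± 2.19 and the Fosb promoter at 11.9 ± 2.32 CPM per kb. Library by library, Jun was above Jund, Egr1 above Fosl2, and Fos above Ier2 in 6 of 6 libraries, and Junb above Atf3 in 5 of 6. The order of Jund and Egr1, of Fosl2 and Junb, and of Ier2 and Fosb held in 4 of 6 libraries, and that of Atf3 and Fos in 3 of 6. Accessibility at a start site is not a measure of transcription, and no RNA was analysed here.

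The spread between replicates was described by the SD of log2 CPM around the stage means. Its median was 0.300 over the 42 regions, with a range of 0.096 to 0.681, and 0.308 when the overlapping Fos versions were counted once. Over all regions it was 0.280, and over all promoter regions 0.241. In 20 classes of equal size by mean CPM, the median spread of all regions fell from 0.408 in the lowest class to 0.239 in class 16. It then rose slightly, to 0.253 in class 20. Each region was therefore also set beside the regions of its class. Of the 42 regions, 27 lay above the median of their class, as did 4 of the 7 promoters. The least spread was found at the Junb promoter (0.096), the region at the end of Fosl1 (0.097) and the distal Jun region (0.113). The most was found at the distal Atf3 region (0.681), the region inside Nfix (0.554) and the region next to Ier2 (0.482). Among the genes, the region over Jund (0.465) and the Egr1 promoter (0.388) varied more than the promoters of Jun (0.310), Fosl2 (0.308), Fosb (0.264), Fos (0.229) and Atf3 (0.164).

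**Figure D4:**
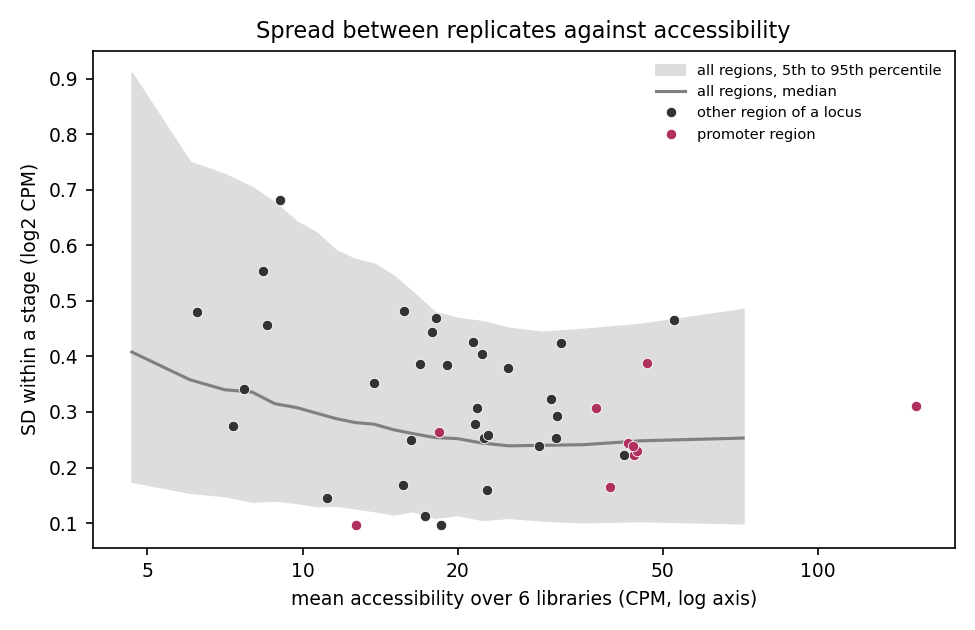
Within-stage SD of log2 CPM against mean CPM (log axis) for the member regions, over the median and the 5th to 95th percentile band of all regions in 20 abundance classes. Most points lie inside the band, 27 of 42 lie above the median line, and the Junb promoter and the region at the end of Fosl1 lie below the band. The distal Atf3 region lies just above it, the region over Jund at its upper edge and the distal Jun region at its lower edge. The Jun promoter, at the far right, has more counts than the middle of the highest class.

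The spread had a shared direction. At the promoters P0 replicate 3 lay above the P0 mean in 7 of 7, with a median deviation of 0.34 in log2 CPM, and P0 replicate 2 lay below it in 7 of 7, with a median of -0.25. E14.5 replicate 2 lay below the E14.5 mean in 6 of 7, with a median of -0.11. Over the 39 separate places, P0 replicate 3 was above the stage mean in 34 (87.2%), P0 replicate 2 below it in 34 (87.2%) and E14.5 replicate 2 below it in 33 (84.6%). The promoters of all genes leaned the same way in these 3 libraries, in 76.6%, 72.2% and 63.6% of 14097 regions, with median deviations of 0.17, -0.16 and -0.06. The medians over the 39 places were 0.26, -0.29 and -0.20. E14.5 replicate 1 lay above its stage mean in 27 of the 39, with a median of 0.16, where the median over all promoters was 0.02. At the 7 promoters alone its median was -0.01, with 3 above the stage mean and 4 below. It was the highest E14.5 library in 23 of the 39 (59.0%) and in 36.6% of all promoters.

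Of the 39 places, 14 were not classed as promoters. Their median deviations were 0.23 in P0 replicate 3 (above the stage mean in 11 of 14), -0.19 in P0 replicate 2 (below it in 12 of 14) and -0.22 in E14.5 replicate 2 (below it in 11 of 14). Over all 29426 regions not classed as promoters the corresponding medians were -0.09, 0.09 and 0.05, a difference that was not tested. The distal Atf3 region and chr8:85013054-85013954 at the Junb locus were exceptions among the 14 at P0, high in replicate 2 and low in replicate 3. P0 replicate 3 was the deepest library and P0 replicate 2 the shallowest, whereas E14.5 replicate 2, low at these loci, was the deepest of its stage. The 39 places are neighbours within 10 loci and are not replicates of one another, and the part of depth or digestion in these deviations was not tested. The median fold change of the 42 regions moved with the same libraries, from -0.24 without P0 replicate 3 to 0.05 without P0 replicate 2.

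**Figure D5:**
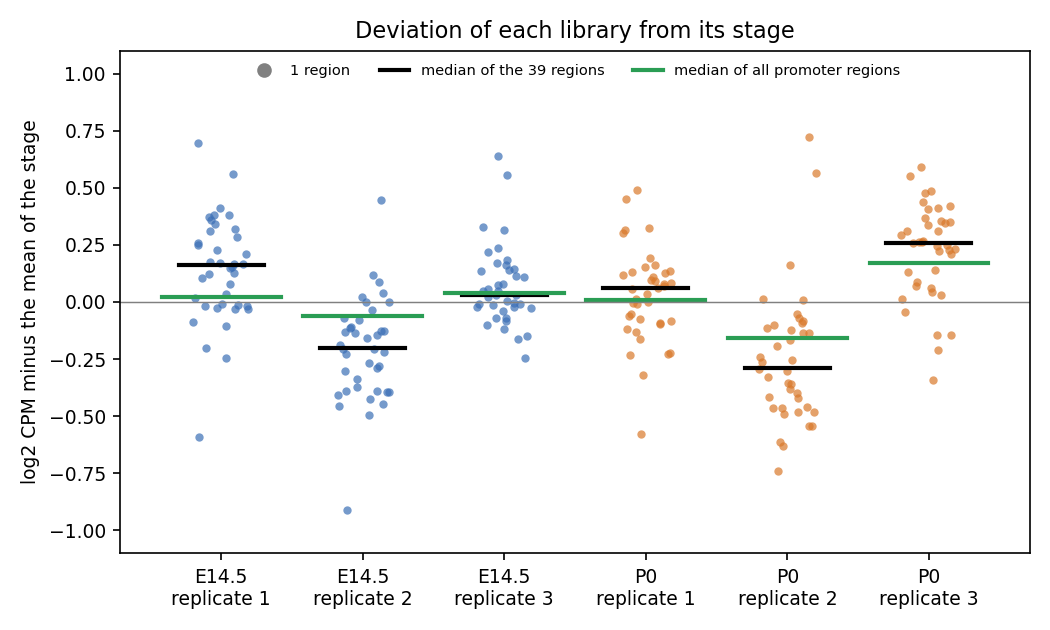
Deviation of each library from its stage mean in log2 CPM, with a point for each of the 39 places, a black bar at their median and a green bar at the median over all promoter regions. P0 replicate 3 lies mostly above 0 and P0 replicate 2 and E14.5 replicate 2 mostly below it, with medians of 0.26, -0.29 and -0.20.

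The deposited table also listed features that the rule did not use. Promoter class of some gene was listed for 66.7% of them, beside 32.4% of all regions and 63.3% of the regions within 50 kb of 84 related genes. A FANTOM enhancer was listed for 12 of the 42 (28.6%), or for 9 of the 39 separate places (23.1%), beside 9.65% of all regions and 24.1% at the related genes, so neither share was particular to the 10 loci. VISTA elements were listed for 2, the region upstream of Fos and a region 9.4 kb from Fosb (4.76%, beside 0.655% of all regions and 1.27% at the related genes). A match to an AP-1 family motif was listed in 3 of the 42 (7.14%), beside 4.49% of all regions and 4.75% at the related genes: at the Fosl2 promoter, 16.8 kb from Fosb and 15.3 kb from Jund. None of these 3 passed the test between the stages.

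Related genes were taken from 4 lists of 84 genes, by the same 50 kb rule and with the same test. Together they had 316 regions, of which 3 passed an adjusted p of 0.05 (0.949%, beside 4.73% of all regions), and of their 79 promoter regions none did, with 3 at an unadjusted p under 0.05, where 8.73% of all promoter regions were. All 3 were bZIP promoters, 16.7% of the 18 in that list. The 3 calls became 0 without E14.5 replicate 3, 1 without P0 replicate 1 and 6 without P0 replicate 2. Among the bZIP genes that can pair or compete with AP-1, such as Batf, Jdp2 and Nfe2l2, 0 of 80 regions were called (edgeR), with 8 (10.0%) at an unadjusted p under 0.05, beside 18.7% of all regions. Their promoters had a median log2 fold change of -0.17, with 17 of 18 below 0, where 9300 of the 14097 promoters of all genes were below 0. Among the other immediate early genes, such as Egr2, Nr4a1, Dusp1 and Klf4, 1 of 114 regions was called. It lies at chr12:8456077-8457756, 40.7 kb from Rhob, which encodes a small GTPase. Its CPM were 7.24, 4.91 and 3.39 at E14.5 and 10.2, 19.8 and 10.3 at P0, so that all P0 libraries were the higher ones, with a rise of 1.36 in log2 (SE 0.34, edgeR adjusted p = 0.0318). This call was lost without E14.5 replicate 2 or 3 or P0 replicate 1 or 2, with edgeR adjusted p from 0.0659 to 0.183.

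Of the genes of the signalling route to AP-1, from Egfr through the MAP kinases to Srf, 1 of 78 regions was called. It lies inside Egfr, the receptor of epidermal growth factor, at chr11:16826267-16827242, and had 9.85, 14.4 and 14.8 CPM at E14.5 and 5.10, 2.42 and 4.03 CPM at P0. Each P0 library lay below each E14.5 library, and the region fell by 1.73 on the log2 scale (SE 0.31, edgeR adjusted p = 0.00623), a call lost only without E14.5 replicate 3 (edgeR adjusted p = 0.0570) among the settings tried. Of the heat shock genes, which tissue digestion is also known to induce, 1 of 44 regions was called. It lies at chr1:55118059-55119800, 27.6 kb from Hspe1 and 30.7 kb from Hspd1, the mitochondrial chaperonin genes. With 6.76, 9.98 and 6.42 CPM at E14.5 and 14.58, 15.7 and 15.6 CPM at P0, it rose by 0.98 in log2 (SE 0.24, edgeR adjusted p = 0.0314). Without any 1 library other than E14.5 replicate 2, this call was lost, with edgeR adjusted p from 0.0559 to 0.174. The median log2 fold changes of the regions of these lists were -0.08 for the bZIP genes, 0.02 for the other immediate early genes, -0.04 for the signalling genes and -0.07 for the heat shock genes.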

How the data were processed

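ATAC-seq libraries of nephron progenitors were compared, 3 at E14.5 and 3 at P0. Counts are whole numbers per region and library in the deposited table, whose 6 sample columns were all matched by title (0 unmatched). Its build is mm10, per the submitters' processing notes. The aligner, peak caller, counting rule, duplicate removal and Tn5 shift are not given in the sources used here, so their effect on the counts was not assessed. The authors' log2 fold change and adjusted p-value come from a model not described there. They were printed for comparison only.

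Of 45489 rows, 1966 repeated a region and were counted once. All 43523 regions were fitted with edgeR 4.0.16 (R 4.3.3) on counts as deposited: TMM scaling, filterByExpr (which kept all 42 regions at the 10 genes), a quasi-likelihood test of stage with no other term, and Benjamini-Hochberg adjustment, threshold 0.05. The biological coefficient of variation was 0.211. An SE is the fold change divided by the root of F. Log2 CPM used a prior count of 1. Alternatives were DESeq2 1.42.0, limma-voom (limma 3.58.1), other scalings, filters and windows, and each library left out.

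Gene positions and promoter sequences came from RefSeq (GRCm38.p6). A promoter region spans the RefSeq start or, without one, is the table's promoter of that gene. Promoter classes, motif matches and enhancers are the table's. Regions named were each promoter, each call, the most accessible region without a start, the highest and lowest fold change per gene, the 3 largest and smallest spreads, and the regions nearest the window's limit. The other regions given were chosen after their values were seen, for groups that did not overlap, listed elements or, at Junb, deviations at P0. The members and lists were chosen with earlier results of these data known.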

Additional observations from a re-analysis of the deposited data

How the results depend on the processing

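Over 14 settings and the 42 regions, 42 of 588 fold changes changed sign, in 21 regions whose log2 fold change was at most 0.22 in size, and 1 region was called once. None of the promoter regions of the 10 genes was called under any setting tried. The 10 genes had 0 to 1 calls with 1 library left out, the 1 without P0 replicate 2. The table as a whole had 339 to 2987 calls with 1 library left out (339 without E14.5 replicate 3, 474 without P0 replicate 1) and 3490 at an adjusted p under 0.1. The other listed genes, with 3 calls, had 0 to 6 with 1 library left out, 5 with DESeq2, 8 at an adjusted p under 0.1 and 1 within 10 kb. The median log2 fold change of the 10 loci was -0.12 with overlapping regions counted once, an alternative chosen after seeing the data, 0.04 with repeated rows kept, -0.02 with scaling to total counts and 0.00 or just below within 10 kb. The median spread ran from 0.252 without P0 replicate 2 to 0.328 without E14.5 replicate 3. Deviations of same-numbered libraries correlated at 0.067, -0.14 and 0.077 (replicates 1, 2 and 3), and P0 replicate 2 correlated best with E14.5 replicate 1, at 0.192. The numbers in the deposited titles match between the stages for replicates 1 and 3 but not for replicate 2. Deviations cancel out within a stage, which constrains these correlations, and a shared batch was not tested. With the replicate number as a block there were 1834 calls over all regions, 0 at the 10 genes and 4 at the other listed genes, and the median log2 fold change of the 10 loci was -0.10. Depth limits the weakest regions most: at the shallowest library, 1 CPM stood for 6.61 counts.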

Other observations

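The deposited table repeats rows, and the Fos promoter is among the repeated places: the versions chr12:85471818-85474837 and chr12:85471818-85475097 each fill 7 rows, and the other versions 1 each. The table also has columns that name predicted target genes of each region. Of 183214 pairs of region and named gene with a RefSeq chromosome, 998 (0.545%) lay on 1 chromosome. Of the 194 pairs that name 1 of the 10 genes, 1 did, and 0 of the 42 regions listed their own gene, so these columns were not used. The motif positions of the same table were read against sequence: of 189 listed Jun, Junb or Jund matches inside RefSeq promoter windows, 182 (96.3%) had TGACTCA or TGAGTCA at the listed position, allowing 1 base either side.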
